A study of Homo sapiens with 6 samples.

Results

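The genes described here build 2 sugar structures on the membrane of the endoplasmic reticulum (ER): the dolichol-linked oligosaccharide that is transferred to asparagine residues of new proteins (N-glycosylation), and the glycosylphosphatidylinositol (GPI) anchor. The set was a fixed list of 41 gene symbols, chosen by function and not by these measurements. It holds 21 dolichol and N-glycan precursor genes and 20 genes of GPI anchor assembly. Each symbol matched 1 Ensembl identifier among the 64299 genes of the deposited count table. Enough reads for a test were found for 40 of the 41, out of 16243 genes tested.

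RNA was measured by poly(A) RNA sequencing in 6 libraries of HEK293T, a human embryonic kidney line that is easily transfected. Cells received 1 µg of plasmid with a lipid-based reagent: 3 libraries came from cells given a plasmid labelled ERbeta (ER-β in the series text), and 3 from cells given the empty vector, EV_Ctrl. The transfection is transient, so a library mixes cells that took up plasmid with cells that did not, and the share of each is not given in the labels. The labels do not say what ER-β is. Knowledge of the study beyond the labels leads to reading it here as a designed β-sheet protein sent to the ER; ESR2, the estrogen receptor beta gene, had 2 to 7 reads in every library. The comparison of ERbeta with EV_Ctrl asks how cells respond to this protein.

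The sugar chain of N-glycosylation is built on dolichol phosphate, a long isoprenoid lipid. Enzymes on the cytosolic face of the ER add the first sugars, the lipid is flipped, and enzymes on the lumenal face add further mannose and then glucose from dolichol-phosphate donors. GPI anchors start from phosphatidylinositol: N-acetylglucosamine is added and deacetylated, the inositol is acylated, and mannose and ethanolamine phosphate follow. A transamidase then joins the finished anchor to the end of a protein. Both pathways draw mannose from dolichol-phosphate mannose, so the synthase that makes it serves both.

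The ERbeta libraries held 13149304 to 16531368 counts each. The EV_Ctrl libraries were less even: EV_Ctrl 1 held 6833442 counts, EV_Ctrl 2 held 27101644 and EV_Ctrl 3 held 10806375. All 7 marker genes of the HEK293 line (NEFL, NEFM, PAX2, VIM, KRT8, KRT18 and LIN28B) were detected in all libraries. The defining genes of leukocytes, hepatocytes, endothelium, erythroid cells and astrocytes (PTPRC, ALB, PECAM1, CDH5, HBB and GFAP) had 0 to 8 reads per library, while the fibroblast genes COL1A1 and COL3A1 reached 31 and 2.81 CPM (read counts scaled to a library size of 1e6 after TMM normalisation). EV_Ctrl 2 stood apart from its group. On the first principal component, with 60.83% of the variance, the scores were 44.7 for EV_Ctrl 1 and 41.5 for EV_Ctrl 3, while EV_Ctrl 2 scored -13.9, at the edge of the ERbeta range of -42.1 to -13.9. Calls made without EV_Ctrl 2 are therefore given beside those made with all 6 libraries.

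All 40 tested genes were expressed, from 0.856 (ALG11) to 41.7 (DPM1) CPM per kb of exonic length. None was called different between ERbeta and EV_Ctrl. By edgeR (quasi-likelihood test, p-values adjusted over all genes by Benjamini-Hochberg), 0 of 40 passed at 0.05, and the smallest adjusted p among them was 0.397. Over the whole table the same test called 0% of genes. At an unadjusted p under 0.05, 5 of 40 were higher in ERbeta and 0 lower, against 9.54% of all tested genes higher and 2.88% lower. All 5 are named below: NUS1, DPM1, ALG13, ALG10B and PIGK. The 3 ERbeta libraries lay above all 3 EV_Ctrl libraries for 3 of 40 genes and below them for 1, against 10.2% and 8.48% of all genes. DESeq2 called 0 of 40, with 0.437% of all genes called and a smallest adjusted p of 0.224 among the 40. Limma-voom called 0 of 40, with 0.00616% of all genes called.

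The 21 dolichol genes and the GPI genes differed little in their medians. Log2 fold changes (ERbeta minus EV_Ctrl throughout) were positive for 15 of 21 dolichol genes, with a median of 0.06, and for 9 of 19 tested GPI genes, with a median of -0.0005. Over all tested genes 48.27% were positive and the median was -0.01. With library size as the only scaling, the positive counts were 9 of 21 and 6 of 19 and the medians -0.04 and -0.10, while the median of all genes was also -0.10. With the correction for GC content described below, the positive counts were 14 of 21 and 12 of 19 and the medians 0.048 and 0.044. In that fit 59.62% of all genes were positive, with a median of 0.046. The summed level of the 21 dolichol genes was 930.8, 947.6 and 991.1 CPM in ERbeta 1, 2 and 3. It was 840.6, 913.9 and 780 CPM in EV_Ctrl 1, 2 and 3. For the 19 GPI genes it was 983.9, 983.7 and 1015 CPM in ERbeta and 991.2, 1004 and 942.5 CPM in EV_Ctrl. The dolichol sums of the groups did not overlap, with EV_Ctrl 2 the control nearest to ERbeta, and the GPI sums overlapped. Highly expressed genes weigh most in a sum: NUS1 alone gave 139.5, 126.6 and 171.9 CPM in ERbeta and 102.2, 119.9 and 110 CPM in EV_Ctrl. By mean log2 CPM of the 21 dolichol genes the groups overlapped, with EV_Ctrl 2 at 5.188 and ERbeta 1 at 5.166. By median log2 CPM they did not, with ERbeta 2 the lowest of its group at 5.231 and EV_Ctrl 2 at 5.155. The separation of the dolichol genes thus depended on the summary used.

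**Figure D1:**
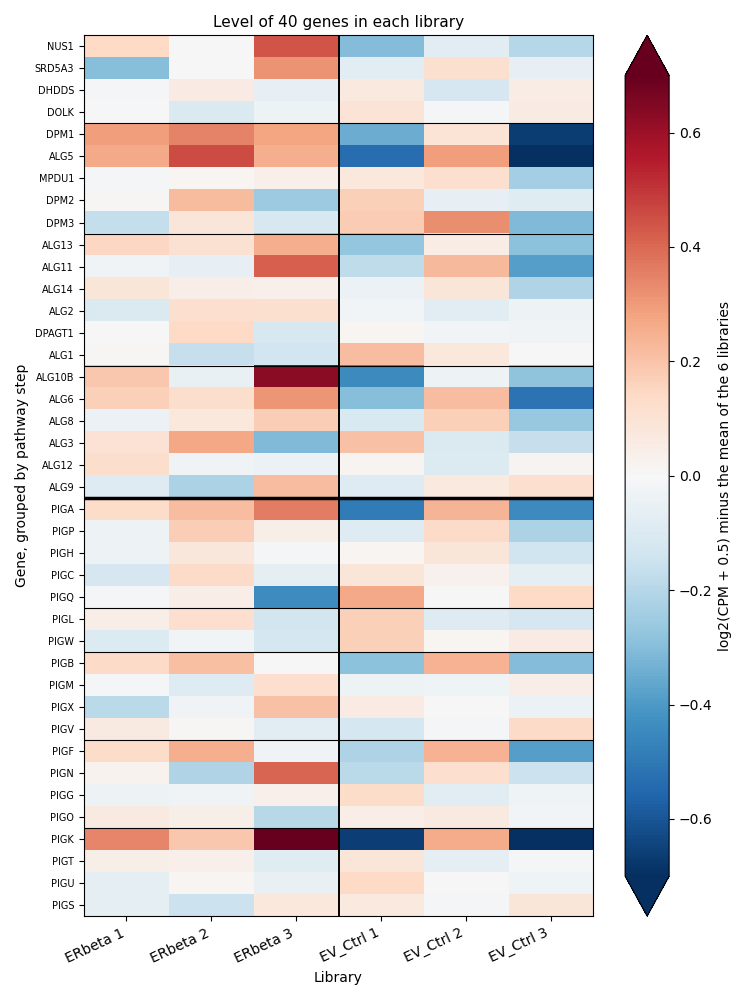
Level of each of the 40 tested genes (rows, grouped by pathway step, with dolichol genes above the heavy line and GPI genes below) in each of the 6 libraries (columns). Color is log2(CPM + 0.5) minus the gene's mean over the 6 libraries; red is higher. The column of EV_Ctrl 2 resembles the ERbeta columns more than those of EV_Ctrl 1 and 3 in several rows, among them ALG5, ALG6, PIGA and PIGK.

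Levels were compared between genes per kb of exonic length (CPM per kb, mean of the 6 libraries, all exons of GENCODE 29). DPM1, the catalytic subunit of dolichol-phosphate mannose synthase, was the highest at 41.7 CPM per kb. Its small membrane subunit DPM3 followed at 30.2, then the transamidase subunit PIGS at 27.6, NUS1 at 27.5 and MPDU1, which is needed for the use of dolichol-phosphate sugars, at 25.5. The lowest were ALG11 at 0.856, ALG14 at 1.499, ALG9 at 1.67 and PIGB at 1.94 CPM per kb. This order depends on the length chosen. Per kb of the longest transcript, PIGS was at 53.6, MPDU1 at 50.7, ALG8 at 45.2 and DPM1 at 43.4, and ALG14 was the lowest at 1.54.

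The first group of 4 genes supplies dolichol. NUS1 and DHDDS encode the 2 subunits of cis-prenyltransferase, which builds the polyisoprenoid chain; SRD5A3 reduces it to dolichol, and DOLK phosphorylates dolichol. NUS1 (chromosome 6, 117675502 to 117710640, plus strand, GRCh38) was at 139.5, 126.6 and 171.9 CPM in ERbeta 1, 2 and 3 and at 102.2, 119.9 and 110 CPM in EV_Ctrl 1, 2 and 3. All ERbeta libraries were above all EV_Ctrl libraries, with ERbeta 2 and EV_Ctrl 2 the closest. The means were 146 ± 23.4 and 110.7 ± 8.84 CPM (SD, n = 3 each). The log2 fold change was 0.40 ± 0.14 (SE), with an unadjusted p of 0.0211 and an adjusted p of 0.397 in edgeR.

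DHDDS, the catalytic partner, was level between the groups. It was at 28.7, 30.1 and 27.8 CPM in ERbeta and at 30.3, 26.6 and 29.96 CPM in EV_Ctrl, so the groups overlapped fully. Its log2 fold change was -0.003 ± 0.11, an estimate whose sign changed in several alternative fits. SRD5A3 was at 0.02 ± 0.17 and DOLK at -0.09 ± 0.10. Of these 4 genes, 1 reached an unadjusted p under 0.05, against 12.4% of all genes, and 0 passed after adjustment.

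The next 5 genes make and present the dolichol-phosphate sugar donors. DPM1 (chromosome 20, 50934867 to 50958555, minus strand) was at 59.9, 62.3 and 59.1 CPM in ERbeta and at 38.2, 52.1 and 30.7 CPM in EV_Ctrl. The groups did not overlap; the ERbeta libraries were close to each other and EV_Ctrl 2 lay well above the other controls. The means were 60.4 ± 1.64 and 40.3 ± 10.9 CPM (SD, n = 3 each), with a log2 fold change of 0.58 ± 0.19, an unadjusted p of 0.0163 and an adjusted p of 0.397 in edgeR.

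The other subunits of the same enzyme stabilise and regulate it. DPM2 had a log2 fold change of -0.006 ± 0.15 and DPM3 of -0.16 ± 0.18. ALG5 (chromosome 13, 36949775 to 37000261, minus strand), which makes dolichol-phosphate glucose, was at 26.4, 30.2 and 26.2 CPM in ERbeta and at 14.96, 26.9 and 12.9 CPM in EV_Ctrl. EV_Ctrl 2 lay inside the ERbeta range, while the other controls lay far below it. The log2 fold change of ALG5 was 0.57 ± 0.26, with an unadjusted p of 0.0641. MPDU1 was at 0.02 ± 0.12.

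On the cytosolic face, 6 genes encode the enzymes that assemble the first sugars. DPAGT1, which starts the chain and is the target of tunicamycin, was at 57.1, 62.9 and 52.7 CPM in ERbeta and at 57.6, 56.3 and 56.2 CPM in EV_Ctrl. The ERbeta libraries spread on both sides of the controls, and the log2 fold change was 0.02 ± 0.11. ALG13 and ALG14 together form the enzyme that adds the next N-acetylglucosamine. ALG13 (chromosome X, 111665811 to 111760649, plus strand) was at 72.1, 70.2 and 77.6 CPM in ERbeta and at 53.8, 67.4 and 53.3 CPM in EV_Ctrl. No library of one group fell within the other, and again EV_Ctrl 2 was the nearest control. Its log2 fold change was 0.33 ± 0.13, with an unadjusted p of 0.0327 and an adjusted p of 0.397 in edgeR. ALG14, the membrane anchor of the pair, was at 0.11 ± 0.13.

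The mannosyltransferases of this face had smaller differences than ALG13. ALG1 had a log2 fold change of -0.19 ± 0.12, ALG2 of 0.09 ± 0.11 and ALG11 of 0.20 ± 0.22. Of the 10335 exonic bases of ALG11, 4100 are shared on the same strand with UTP14C, so its low count is uncertain. Over the 6 genes, 5 were positive and the median was 0.10, against 48.27% positive and -0.01 over all genes. Of the 6, 1 reached an unadjusted p under 0.05, against 12.4% of all genes.

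On the lumenal face, ALG3, ALG9 and ALG12 add mannose, and ALG6, ALG8 and ALG10B add the 3 glucose residues in that order. The mannosyltransferases were at 0.06 ± 0.18, -0.06 ± 0.15 and 0.04 ± 0.11. The glucosyltransferases were at 0.36 ± 0.19 for ALG6, 0.12 ± 0.14 for ALG8 and 0.53 ± 0.20 for ALG10B. Over the 6 genes the median was 0.09, with 5 positive, against -0.01 and 48.27% positive over all genes.

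ALG10B (chromosome 12, 38316578 to 38329728, plus strand) was at 41.1, 34.8 and 56.1 CPM in ERbeta and at 26.3, 35.1 and 29.6 CPM in EV_Ctrl. ERbeta 3 was the highest, and EV_Ctrl 2 was just above ERbeta 2, so the groups overlapped; the unadjusted p was 0.0301. Its near-identical copy ALG10, which is outside the 41 genes, was at 0.37 ± 0.19; the counting could have divided reads between both copies. ALG6 (chromosome 1, 63367575 to 63438562, plus strand) was at 38.3, 37.1 and 42.2 CPM in ERbeta and at 27.6, 39.5 and 23.6 CPM in EV_Ctrl. Here EV_Ctrl 2 exceeded 2 of the 3 ERbeta libraries, and the unadjusted p was 0.0984.

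**Figure D2:**
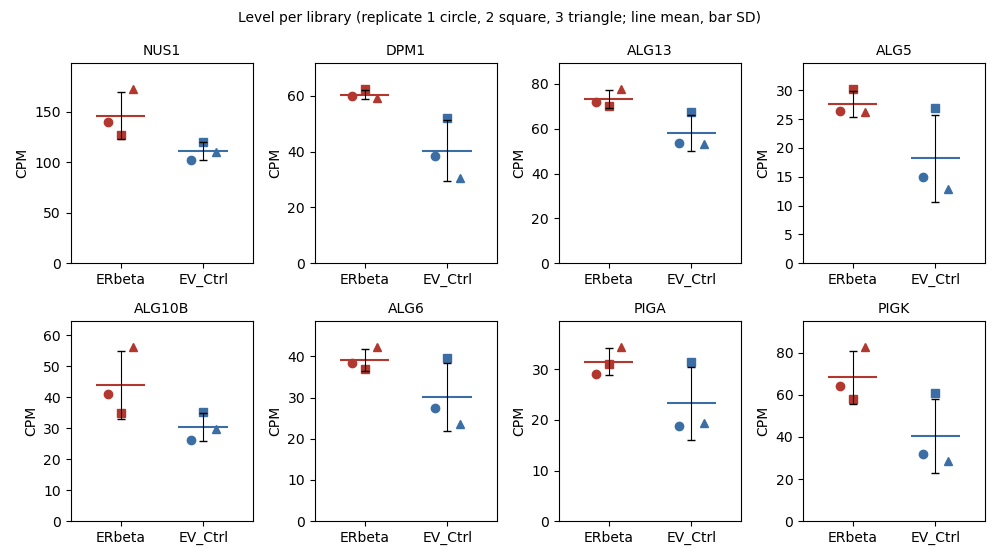
Level in CPM (vertical axis, from 0) of 8 genes in the 3 ERbeta (red) and 3 EV_Ctrl (blue) libraries; the symbol gives the replicate number, the horizontal line the mean and the bar the SD. EV_Ctrl 2 (blue square) is the highest control in every panel, and the groups are separate for NUS1, DPM1 and ALG13.

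GPI assembly begins with a transferase complex that puts N-acetylglucosamine on phosphatidylinositol. PIGA is its catalytic subunit and the X-linked gene that is mutated in paroxysmal nocturnal hemoglobinuria. PIGA (chromosome X, 15319451 to 15335580, minus strand) was at 29.2, 31.0 and 34.3 CPM in ERbeta and at 18.8, 31.5 and 19.4 CPM in EV_Ctrl. EV_Ctrl 2 lay among the ERbeta libraries and above the other controls. The log2 fold change was 0.42 ± 0.21, with an unadjusted p of 0.0817.

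PIGQ, another subunit of this complex, had the most negative value of the 40 genes. It was at 97.6, 101.4 and 72.4 CPM in ERbeta and at 118.0, 97.9 and 108.3 CPM in EV_Ctrl. The groups overlapped, with ERbeta 3 the lowest library, and the log2 fold change was -0.25 ± 0.15. PIGC was at -0.03 ± 0.12, PIGH at 0.02 ± 0.11 and PIGP at 0.11 ± 0.13. PIGY, a small subunit that regulates the complex, had 0 reads in all 6 libraries. All 217 of its exonic bases lie within PYURF on the same strand, from whose transcript it is translated, so the 0 does not measure PIGY expression. PYURF was at 66.3 ± 4.52 and 64.4 ± 7.34 CPM (SD, n = 3 each).

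The deacetylase gene PIGL was at 0.03 ± 0.13. PIGW, the inositol acyltransferase (chromosome 17, 36535020 to 36539310, plus strand), was the 1 gene whose ERbeta libraries all lay below the controls. It was at 55.0, 58.2 and 54.0 CPM in ERbeta and at 66.2, 59.6 and 61.3 CPM in EV_Ctrl. The gap between ERbeta 2 and EV_Ctrl 2 was small, and the log2 fold change was -0.16 ± 0.10, with an unadjusted p of 0.155 in edgeR. Of the 2799 exonic bases of PIGW, 582 overlap MYO19 on the opposite strand. MYO19 was at 0.01 ± 0.10, with means of 156 CPM in ERbeta and 154.6 CPM in EV_Ctrl.

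Among the GPI mannosyltransferases, PIGM and its partner PIGX were at 0.01 ± 0.11 and -0.0005 ± 0.13, and PIGV was at -0.007 ± 0.13. PIGB, which adds the third mannose, was at 9.63, 10.2 and 8.75 CPM in ERbeta and at 7.07, 10.4 and 6.97 CPM in EV_Ctrl. EV_Ctrl 2 was the highest of the 6 libraries, and the log2 fold change was 0.19 ± 0.19, or 0.45 without EV_Ctrl 2, where it was not called (adjusted p 0.152 in edgeR). PIGB shares 443 exonic bases with CCPG1 on the opposite strand, which was at 1.01 ± 0.46.

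The ethanolamine phosphate step was represented by PIGN at 0.16 ± 0.17, PIGO at -0.06 ± 0.11, PIGG at -0.02 ± 0.11 and PIGF, a partner of PIGO and PIGG, at 0.21 ± 0.18. PIGF was at 27.1, 29.5 and 24.3 CPM in ERbeta and at 21.2, 29.3 and 18.8 CPM in EV_Ctrl. As for PIGB, EV_Ctrl 2 was level with the ERbeta libraries; without it PIGF was at 0.44 and was not called (adjusted p 0.08 in edgeR). PIGF overlaps RHOQ and CRIPT on the opposite strand, by 655 and 608 bases, and these were at 0.40 ± 0.14 and 0.48 ± 0.18. Of the 4 genes, 0 reached an unadjusted p under 0.05, against 12.4% of all genes.

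In the transamidase that attaches the finished anchor, the values ran from -0.09 to 0.74. PIGK (chromosome 1, 77088990 to 77219430, minus strand), its catalytic protease, was at 64.4, 57.9 and 82.5 CPM in ERbeta and at 32.0, 60.8 and 28.5 CPM in EV_Ctrl. EV_Ctrl 2 exceeded ERbeta 2 and was far above the other controls. The log2 fold change of 0.74 ± 0.29 was the largest of the 40 genes, with an unadjusted p of 0.0357 and an adjusted p of 0.397 in edgeR. The subunits PIGS, PIGT and PIGU were at -0.09 ± 0.10, -0.006 ± 0.10 and -0.07 ± 0.11, none of them near the value of PIGK; the difference between subunits was not tested.

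**Figure D3:**
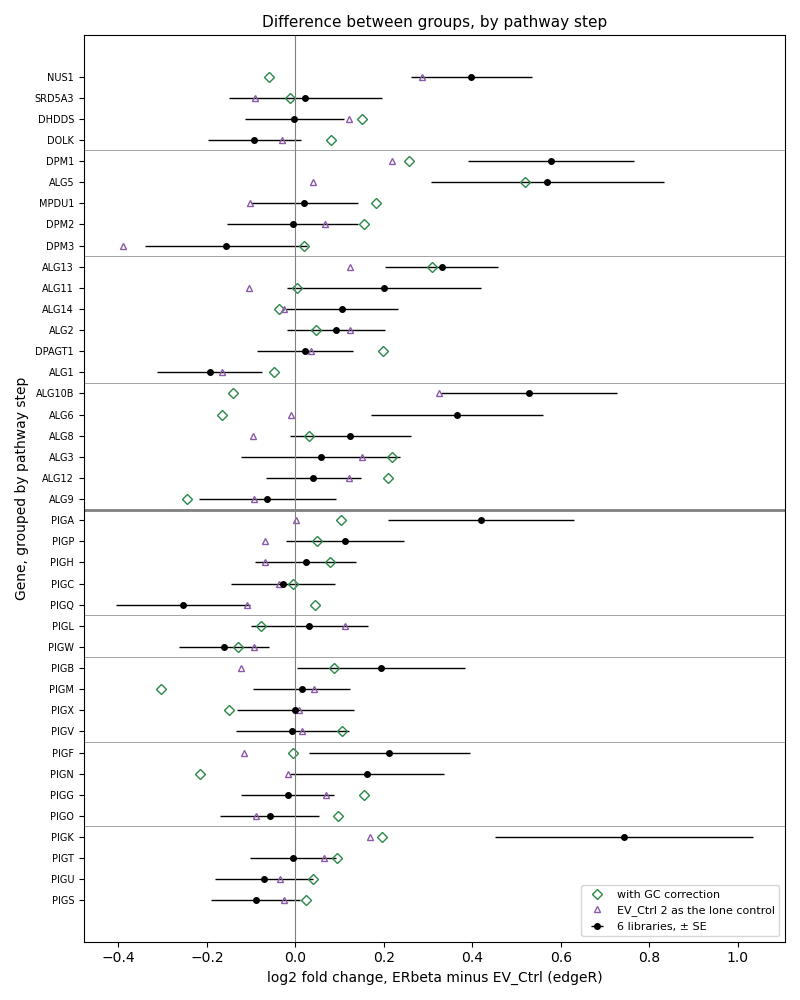
Log2 fold change of ERbeta over EV_Ctrl (horizontal axis) for the 40 genes, grouped by pathway step. Black points with bars are edgeR estimates ± SE from 6 libraries, green diamonds the estimates after a correction for GC content, and violet triangles those with EV_Ctrl 2 as the lone control. PIGK is farthest right at 0.74 with all libraries and falls to 0.20 and 0.17 in the other fits.

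Which genes were called depended on EV_Ctrl 2. Its level was nearer to the ERbeta mean than to the mean of EV_Ctrl 1 and 3 for 31 of 40 genes (77.5%), against 64.1% of all tested genes. Without EV_Ctrl 2, edgeR called 7 of the 40 higher in ERbeta and 0 lower, against 13.5% of all genes higher and 0.775% lower. These were PIGK at 1.18 (adjusted p 0.000627), ALG5 at 1.00 (0.000945), DPM1 at 0.83 (0.00186), PIGA at 0.72 (0.0047), ALG6 at 0.63 (0.0108), ALG13 at 0.46 (0.0306) and ALG10B at 0.65 (0.0463). NUS1 was at 0.47 and was not called, with an adjusted p of 0.0577. With EV_Ctrl 2 as the lone control the same genes were at 0.17, 0.04, 0.22, 0.001, -0.01, 0.12 and 0.33, and NUS1 was at 0.29. The share of 7 in 40 is near the background share of 13.5%. EV_Ctrl 2 was left out because of its place near ERbeta in these same data. The adjusted p-values without it therefore cannot be taken at face value.

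Fold changes also followed the GC content of the transcripts. Among the 21 genes whose longest transcript is under 45% GC, 19 were positive, and the median log2 fold change was 0.19; of the 19 genes at 45% or more, 5 were positive with a median of -0.02. Spearman's rho between log2 fold change and GC content was -0.72 across the 40 genes, -0.72 across the 21 dolichol genes and -0.81 across the 19 GPI genes. Across all genes it was -0.61; the genes share the same 6 libraries and are not independent replicates. The trend differed between libraries of a group. Across all genes, rho between GC content and a gene's deviation from its mean was 0.61 and 0.48 in EV_Ctrl 1 and 3, and -0.23 in EV_Ctrl 2. It was -0.30, -0.08 and -0.71 in ERbeta 1, 2 and 3.

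Of the genes at unadjusted p under 0.05, ALG10B at 33.3%, PIGK at 34.9%, NUS1 at 38.0% and DPM1 at 39.3% were among the poorest in GC, while ALG13 at 44.4% was close to the median of the 40 genes, 44.3%. A per-library correction for this trend left ALG13 at 0.31 (unadjusted p 0.0225) and ALG5 at 0.52 (0.0594), close to their uncorrected values. DPM1 was at 0.26, PIGK at 0.20 and PIGA at 0.10. NUS1, ALG10B and ALG6 changed sign, to -0.06, -0.14 and -0.17. They were not alone: signs changed in both directions among the 40 genes. PIGN went from 0.16 to -0.22, and PIGQ from -0.25 to 0.04. PIGM, which was at 0.01 before, was at -0.30 (unadjusted p 0.0429). In that fit 0 of 40 genes were called, with 0.137% of all genes called, and at an unadjusted p under 0.05 there were 1 higher and 1 lower, against 8.32% and 2.70% of all genes. The median of all genes in that fit was 0.05. After correction rho was 0.45 across the 40 genes and 0.02 across all genes, so for the 40 the trend was turned rather than removed.

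With the correction and without EV_Ctrl 2, 3 of 40 genes were called: ALG5 higher at 0.95 (adjusted p 0.00146 in edgeR), ALG13 higher at 0.44 (0.0133) and PIGM lower at -0.43 (0.0204). All genes together gave 9.18% higher and 2.14% lower in that fit, with a median of 0.09. ALG5 and ALG13 were thus the 2 genes called both with and without GC correction once EV_Ctrl 2 was left out. With all 6 libraries neither was called in either fit. Whether the GC trend or EV_Ctrl 2 accounts for any difference was not tested.

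**Figure D4:**
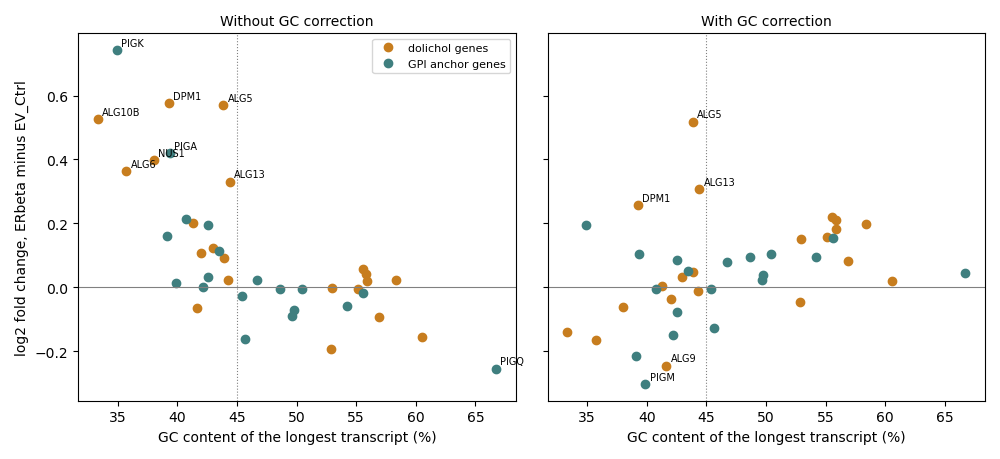
Log2 fold change of ERbeta over EV_Ctrl (vertical axis) against GC content of the longest transcript in percent (horizontal axis; dotted line at 45%) for the 40 genes, before (left) and after (right) the per-library GC correction. Before correction the values fall with GC content (rho -0.72); afterwards ALG5, at 0.52, and ALG13, at 0.31, are the highest.

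The authors' deposited table of their own DESeq2 comparison gave an adjusted p for 40 of the genes. It called 2 of them, NUS1 with a log2 fold change of 0.35 (adjusted p 0.0416) and DPM1 with 0.46 (adjusted p 0.0478), both higher in ERbeta. Of the 11150 genes with an adjusted p in the authors' deposited table, 3.78% were called, while 16243 genes were tested here. The median absolute fold change there was 0.74 of that in the DESeq2 test here, so the estimates are not on the same scale. The adjusted p in the authors' deposited table was 0.0824 for PIGK, 0.0922 for ALG13, 0.101 for ALG5 and 0.129 for ALG10B. The authors' deposited table also lists fold changes for 8079 genes with 0 reads in all 6 libraries of the count table, so both may not rest on the same counting. The median ratio of the authors' mean normalised count per gene to that here was 1.026.

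Promoters were searched for elements through which ER stress raises genes, using windows of 300 bases (250 before to 50 after each start) from RefSeq on GRCh38.p14. A window was at hand for 37 of the 41 genes, 52 windows in all. The ER stress response element (ERSE: CCAAT, then any 9 bases, then CCACG, either strand), which ATF6 is known to bind together with NF-Y, was in 1 of 52 windows, against 0.0769% of all 35116 windows. That window was ALG12's. The match lies at 49918554 to 49918572 of chromosome 22, between ALG12 on the minus strand and CRELD2, an ER stress gene, on the plus strand, and is also within CRELD2's window. The stretch shown runs from ALG12's annotated start to the nearest annotated CRELD2 start beyond the match, which is not the only CRELD2 start. It is shown because 1 element faces genes with different values. Capitals mark the ERSE, read on ALG12's strand (chr22:49918459-49918634, minus strand).

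ALG12: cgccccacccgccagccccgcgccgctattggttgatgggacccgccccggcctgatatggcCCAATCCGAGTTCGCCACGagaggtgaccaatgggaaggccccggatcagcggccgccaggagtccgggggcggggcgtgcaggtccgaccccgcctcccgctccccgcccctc

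On the ALG12 side of this stretch, levels were 50.3, 45.3 and 44.9 CPM in ERbeta and 46.8, 43.2 and 46.8 CPM in EV_Ctrl, with overlapping groups and a log2 fold change of 0.04 ± 0.11. On the CRELD2 side they were 63.6, 70.4 and 50.9 CPM in ERbeta and 47.0, 45.6 and 41.5 CPM in EV_Ctrl. All 3 ERbeta libraries were above the controls for CRELD2, with a log2 fold change of 0.47 ± 0.14 and an unadjusted p of 0.0122 (adjusted p 0.397 in edgeR). Some annotated exons of ALG12 and CRELD2 overlap on opposite strands, by 168 bases, and the strand setting of the counting is not given in the sources used here. The difference between their fold changes was not tested.

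A core of the unfolded protein response element, TGACGTGG on either strand, known as a binding site of XBP1 and ATF6, was in 2 of 52 windows, those of DHDDS and PIGP, against 0.729% of all windows. In PIGP it lies 213 to 206 bases before the start, and it is shown in capitals, reading CCACGTCA on PIGP's strand, with 30 bases on each side (chr21:37073247-37073314, minus strand).

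PIGP: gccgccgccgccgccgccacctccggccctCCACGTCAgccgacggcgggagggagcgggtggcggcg

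Neither gene reached an unadjusted p under 0.05: DHDDS was at -0.003 ± 0.11 and PIGP at 0.11 ± 0.13. The element ERSE-II (ATTGG, any 1 base, CCACG) and the cyclic AMP response element TGACGTCA were in 0 of 52 windows, against 0.0541% and 1.85% of all windows. No ERSE, ERSE-II or UPRE core was found in the windows of NUS1, DPM1, ALG13, ALG5, ALG10B, ALG6, PIGA or PIGK.

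Other genes of both pathways, outside the 41, were taken from a list of further enzymes and cofactors. Of 19 such genes tested, 8 were positive and 11 negative (42.11% positive, against 48.27% of all genes) with a median of -0.03, and 0 were called. With GC correction 14 of 19 were positive with a median of 0.11, against 59.62% of all genes and a median of 0.05. At an unadjusted p under 0.05 there was 1 higher and 1 lower, against 9.54% and 2.88% of all genes. Without EV_Ctrl 2, 3 were called, all higher, against 13.5% of all genes: PGAP1, ARV1 and UAP1. The higher was PGAP1, which removes the acyl chain from inositol after the anchor is attached, at 0.75 ± 0.28 (unadjusted p 0.0307). Its levels were 80.4, 72.4 and 109.8 CPM in ERbeta and 37.6, 75.6 and 42.2 CPM in EV_Ctrl, with EV_Ctrl 2 again inside the ERbeta range; without EV_Ctrl 2 it was at 1.14 (adjusted p 0.0012 in edgeR), and after GC correction at 0.19. The lower was MPPE1, which trims ethanolamine phosphate from the anchor, at -0.32 ± 0.14 (unadjusted p 0.0465). It was at 23.0, 22.9 and 18.7 CPM in ERbeta and at 26.7, 24.6 and 29.6 CPM in EV_Ctrl, so its groups did not overlap; after GC correction it was at -0.20. ARV1, a sterol and GPI homeostasis factor, was at 0.50 ± 0.28, and at 0.97 (adjusted p 0.00049 in edgeR) without EV_Ctrl 2. EV_Ctrl 2, at 50.9 CPM, was above all ERbeta libraries for ARV1 (47.1, 49.4 and 46.7 CPM). With EV_Ctrl 2 as the lone control ARV1 was at -0.09. UAP1, which makes the UDP-N-acetylglucosamine that both pathways use, was at 0.40 ± 0.23, and at 0.74 (adjusted p 0.00229 in edgeR) without EV_Ctrl 2. Its level in EV_Ctrl 2, 78.8 CPM, was also above all ERbeta libraries (72.3, 73.6 and 76.6 CPM). With EV_Ctrl 2 as the lone control UAP1 was at -0.08.

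The mRNAs of 31 proteins that carry a GPI anchor were read as the clients of the pathway. Of 30 tested (THY1 had too few reads), 9 were positive and 21 negative (30% positive, against 48.27% of all genes) with a median of -0.17, and 0 were called. With GC correction 15 were positive and 15 negative with a median of 0.001, against 59.62% of all genes positive. At an unadjusted p under 0.05 there was 1 higher and 0 lower, against 9.54% and 2.88% of all genes. The 1 was CD55, a complement inhibitor, at 0.35 ± 0.13 (unadjusted p 0.0293 in edgeR). CD55 was at 55.0, 60.8 and 57.0 CPM in ERbeta and at 44.1, 51.8 and 39.0 CPM in EV_Ctrl, and the groups did not overlap. Without EV_Ctrl 2 it was at 0.48 and was called (adjusted p 0.0309 in edgeR). It was the 1 call among the 30, against 13.5% of all genes higher and 0.775% lower in that fit. After GC correction CD55 was at 0.17. Of the 5 glypican genes tested, 1 was positive, GPC6 at 0.42 ± 0.20, and 4 were negative: GPC1 at -0.24 ± 0.11, GPC2 at -0.38 ± 0.21, GPC3 at -0.30 ± 0.18 and GPC4 at -0.23 ± 0.15. After GC correction GPC1 was at 0.07.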

How the data were processed

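The authors deposited raw whole-number read counts per gene for 6 libraries; per the submitters' processing notes TopHat2, featureCounts, DESeq2 and hg38 were used. Not given in the sources used here: versions, annotation and strand setting. A second table deposited by the authors holds, per the file headers, p-values, log2 fold changes, a mean signal and, as scores, standard errors and Wald statistics; it was read for comparison only. The table had 0 further sample columns. Nothing in the labels ties replicates to separate cultures; p-values therefore measure only how these libraries spread, possibly for technical reasons. No pair agreed within counting noise (chi-square per degree of freedom 4.74 to 38.7).

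Genes were filtered with filterByExpr (minimum count 10, minimum total 15), normalised by TMM and tested with edgeR 4.0.16 (glmQLFit, glmQLFTest; R 4.3.3), group as the only term, over all 16243 genes; the biological coefficient of variation was 17.5%. Standard errors were derived from the F statistic. Alternatives were DESeq2 1.42.0 (size factors, test), limma-voom (limma 3.58.1), library size only, other filters, a replicate block, GC correction (per-library loess of log2 CPM on GC content, span 0.5, as an offset), and leaving out libraries. Positions and lengths are from GENCODE 29 (GRCh38), promoters from RefSeq (GRCh38.p14). The steps were tested on simulated data.

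Per-library values are given for the 6 genes of each pathway with the smallest p, those called when 1 library was left out, and DHDDS, NUS1, DPAGT1, ALG13, ALG10B, PIGA, PIGY and PIGK; in related lists, up to 4 with the smallest p. CRELD2, PYURF and other overlapping genes, and the levels of ALG12, were added for their position, and UAP1, GPC3 and GPC4 after their values were seen. Genes, lists, tests and alternatives were chosen with earlier results of these data known.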

Additional observations from a re-analysis of the deposited data

How the results depend on the processing

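Counts of genes called over the whole table, 0 with all libraries, were 51 with no filter on low counts, 71 with DESeq2, 1 with limma-voom, 22 with GC correction, 1822 with GC correction and EV_Ctrl 2 left out (1478 higher, 344 lower) and 0 to 2324 when 1 library was left out (2198 higher and 126 lower without EV_Ctrl 2). Dolichol genes called were 2 with GC correction and EV_Ctrl 2 left out and 0 to 5 with 1 library left out; GPI genes called were 1 and 0 to 2. The 5 and 2 are without EV_Ctrl 2, and without any other single library the number was 0.

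At an unadjusted p under 0.05, dolichol genes numbered 1 with GC correction and 1 to 6 with 1 library left out, against 4. GPI genes numbered 2 with no filter, 3 with GC correction and EV_Ctrl 2 left out and 0 to 4 with 1 library left out, against 1. The 6 and 4 are without EV_Ctrl 2, where 25.2% of all genes reached this p. That share was 12.4% with all 6 libraries, 11% with GC correction and 10.6% with no filter. It was 25.1% with GC correction and EV_Ctrl 2 left out, and 4.83% to 25.2% with 1 library left out. Groups that did not overlap numbered 8 dolichol and 4 GPI genes with EV_Ctrl 2 as the lone control, 9 and 9 with GC correction and EV_Ctrl 2 left out, and 3 to 10 and 1 to 7 with 1 library left out; GPI genes numbered 2 with library size only. Of all genes, 18.7% did not overlap with all 6 libraries, 39.8% with EV_Ctrl 2 as the lone control, 43.1% with GC correction and EV_Ctrl 2 left out and 45.3% without EV_Ctrl 2; fewer libraries make separation easier. The GPI median was 0.1101 with GC correction and EV_Ctrl 2 left out.

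Among the genes chosen for closer reading, signs turned for DPAGT1 with library size only (-0.0722) and for DHDDS with limma-voom (0.0086). The values below also cover chosen genes only, and signs turned for other genes too. With library size only, 9 of 21 dolichol and 6 of 19 GPI genes were positive, against 15 and 9 with TMM. With 1 library left out DPAGT1 ranged from -0.0384 to 0.0825 and DHDDS from -0.0559 to 0.0319. With GC correction NUS1 was at -0.0606, ALG10B at -0.1402, ALG6 at -0.1656, PIGQ at 0.0438, PIGF at -0.0046, DHDDS at 0.15, ALG10 at -0.0322 and GPC1 at 0.0716. With GC correction and EV_Ctrl 2 left out NUS1 was at -0.1616, ALG10B at -0.2448, ALG6 at -0.1525, PIGQ at 0.0505, DHDDS at 0.1607, ALG10 at -0.1802 and GPC1 at 0.1267. With EV_Ctrl 2 as the lone control, assumed to vary like the ERbeta libraries, ALG6 was at -0.0095, PIGF at -0.1154, PIGB at -0.1237, DHDDS at 0.1213 and ARV1 at -0.0909. The cause of these changes was not tested.

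Deviations of same-numbered libraries correlated at 0.23, -0.14 and -0.15, within the range of -0.37 to 0.36 for differently numbered ones. So few pairs cannot settle whether libraries of the same number were handled together. With the replicate block 0 genes were called, and 3 dolichol genes (DPM1, NUS1 and ALG5) and 1 GPI gene (PIGK) had an unadjusted p under 0.05, against 11.2% of all genes. ALG10B (0.0546), ALG13 (0.0566) and MPPE1 (0.0908) no longer did. With the replicate block and GC correction NUS1 was at -0.0547, ALG10B at -0.1468, ALG6 at -0.165, PIGQ at 0.0419, PIGF at -0.0042, DHDDS at 0.151, ALG10 at -0.0529 and GPC1 at 0.0668. With the replicate block and GC correction 0 genes were called over the whole table, against 22 with GC correction alone.

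Depth limits the genes with few reads, such as ALG11 and PIGB, and EV_Ctrl 1 has the fewest counts of the 6 libraries.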
